A study of Mus musculus with 3 samples.

Results

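The genes described here encode inhibitors of the RAS to ERK pathway: the dual-specificity phosphatases Dusp1, Dusp2, Dusp4, Dusp5 and Dusp6, the Sprouty proteins Spry1, Spry2 and Spry4, and the Spred proteins Spred1 and Spred2. They were chosen by name, and all 10 were present in a table of 24421 mouse genes. Of these, 9 reached 1 CPM in at least 1 library, CPM being reads scaled to library size, as did 13100 genes in all. Spry1 was below that limit, and Dusp2 reached it in the TPA library alone.

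Growth factor receptors and protein kinase C raise RAS-GTP, which switches on RAF, MEK and then the ERK kinases. Active ERK induces transcription of several of its own inhibitors, so that messages of this kind are often read as a trace of earlier pathway activity. The phosphatases remove phosphate from ERK itself, and some also act on the stress kinases JNK and p38. Sprouty and Spred proteins act further up, between the receptor and RAF. Phorbol esters such as TPA (12-O-tetradecanoylphorbol-13-acetate) stand in for diacylglycerol, a natural activator of protein kinase C, and promote tumours in mouse skin. In keratinocyte cultures an acute dose is a standard way to activate ERK.

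The RNA came from JB6 P+ cells, a mouse epidermal line in which tumour promoters induce transformation. Each group was 1 library. The CDDO+TPA cells received TPA at 10 ng/mL and CDDO, a synthetic triterpenoid known as an activator of NRF2, at 50 nM, and the TPA cells received TPA at 10 ng/mL without it. Both treatments were given on alternate days for 5 days in medium with 1% serum. Cells of every group were passaged in medium with 10% serum. The control is labelled only as such. Its serum during the treatment period, time in culture and any vehicle are not stated there. TPA thus cannot be told apart from differences in these, such as 10% against 1% serum. The deposited column taken as CDDO+TPA names CDDO without TPA, and the labels hold no other CDDO sample. The CDDO+TPA, TPA and control libraries held 7872089, 7813035 and 8190078 reads assigned to genes.

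The comparison of TPA with control asks what differed in cells given the promoter, and that of CDDO+TPA with TPA what differed when the triterpenoid was added. With 1 library per group no spread between cultures was measured, and every interval below covers counting error only, for reads that are not independent molecules. The term past the size rule is used for a log2 fold change of 1 or more in either direction, with a fold whose 95% counting interval leaves out 1. Of 7 keratinocyte markers, 1 was measured, Krt8 with 8, 7 and 2 reads in the CDDO+TPA, TPA and control libraries, and Krt5, Krt18 and Epcam had 0 reads in every library. The epithelial label was thus not borne out by these transcripts. Of 5 mesenchymal markers all were measured, with summed levels of 2429, 1922 and 3033 CPM in the CDDO+TPA, TPA and control libraries. Fn1 was the largest part, with 1391, 1087 and 1519 CPM in the same order. The markers did not go the same way. Vim was lowest in the control library, with 356, 369 and 268 CPM. Col1a1 (267, 152 and 529 CPM) and Col1a2 (207, 145 and 506 CPM) were highest there. Cdh2 had 208, 169 and 211 CPM. Of 3 leukocyte markers 2 were measured, with a summed level of 13.8, 8.79 and 29.7 CPM in the CDDO+TPA, TPA and control libraries. Cd74 had 43, 54 and 189 reads and Lyz2 had 66, 16 and 49 reads in the CDDO+TPA, TPA and control libraries, while Ptprc, carried by all leukocytes, was at 0 reads in each. The part of such cells in the results was not tested. The endothelial markers Pecam1 and Cdh5 together had 0.633, 1.76 and 0.624 CPM in the CDDO+TPA, TPA and control libraries. In bulk RNA, fewer cells of a type and less RNA per cell cannot be told apart.

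Dusp5 was the member that differed most between libraries, and its level was ordered CDDO+TPA above TPA above control. It encodes a nuclear phosphatase specific for ERK. There were 298 reads in the CDDO+TPA library, 157 in the TPA library and 44 in the control library, or 37.8, 19.7 and 5.49 CPM in the CDDO+TPA, TPA and control libraries. The 95% Poisson intervals of the 3 levels did not overlap. The TPA library was 3.59-fold higher than the control library (95% counting interval 2.56 to 5.14), a log2 fold change of 1.80 and past the size rule. Of all 13100 genes tested, 4.88% had a log2 fold change at least as high. The CDDO+TPA library was 6.88-fold higher than the control library (4.998 to 9.67), a log2 fold change of 2.73, and 0.809% of the genes tested reached that value. Between the CDDO+TPA and TPA libraries Dusp5 was 1.92-fold higher (1.57 to 2.34), a log2 fold change of 0.93 that missed the size rule.

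The deposited annotation counts Dusp5 over its coding exons only, 1155 bases on chromosome 19, 53529318 to 53541322, plus strand in mm10. These are 46.7% of its exonic bases in GENCODE M21, so reads from its untranslated regions are absent from the counts. An unstranded count cannot separate the strands, and 338 of the counted bases lie opposite exons of the GENCODE gene AC137853.2. What share of the Dusp5 reads came from that gene was not tested.

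The sequence before the Dusp5 start is shown because it held the most matches to the 4 motifs among the 8 members searched. Dusp4 and Spry4 were not searched. It spans chr19:53528895-53529144 in GRCm38.p6, plus strand, and comes from RefSeq. The 250 bases end at the base before the RefSeq start, and capitals mark matches to the CArG box, the element read by serum response factor.
Dusp5: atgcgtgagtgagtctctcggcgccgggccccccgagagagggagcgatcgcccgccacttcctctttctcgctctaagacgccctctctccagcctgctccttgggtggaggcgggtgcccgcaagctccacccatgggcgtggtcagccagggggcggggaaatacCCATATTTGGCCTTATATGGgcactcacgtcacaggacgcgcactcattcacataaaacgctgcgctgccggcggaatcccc
The capitals hold 2 adjoining CArG boxes, at positions -82 to -73 and -72 to -63 from the start. CArG boxes were found upstream of 1.47% of the 32851 starts in the RefSeq table, and upstream of 1 of the 8 members searched. Srf, which encodes serum response factor, had 135, 208 and 147 CPM in the CDDO+TPA, TPA and control libraries and was not past the size rule.

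**Figure D1:**
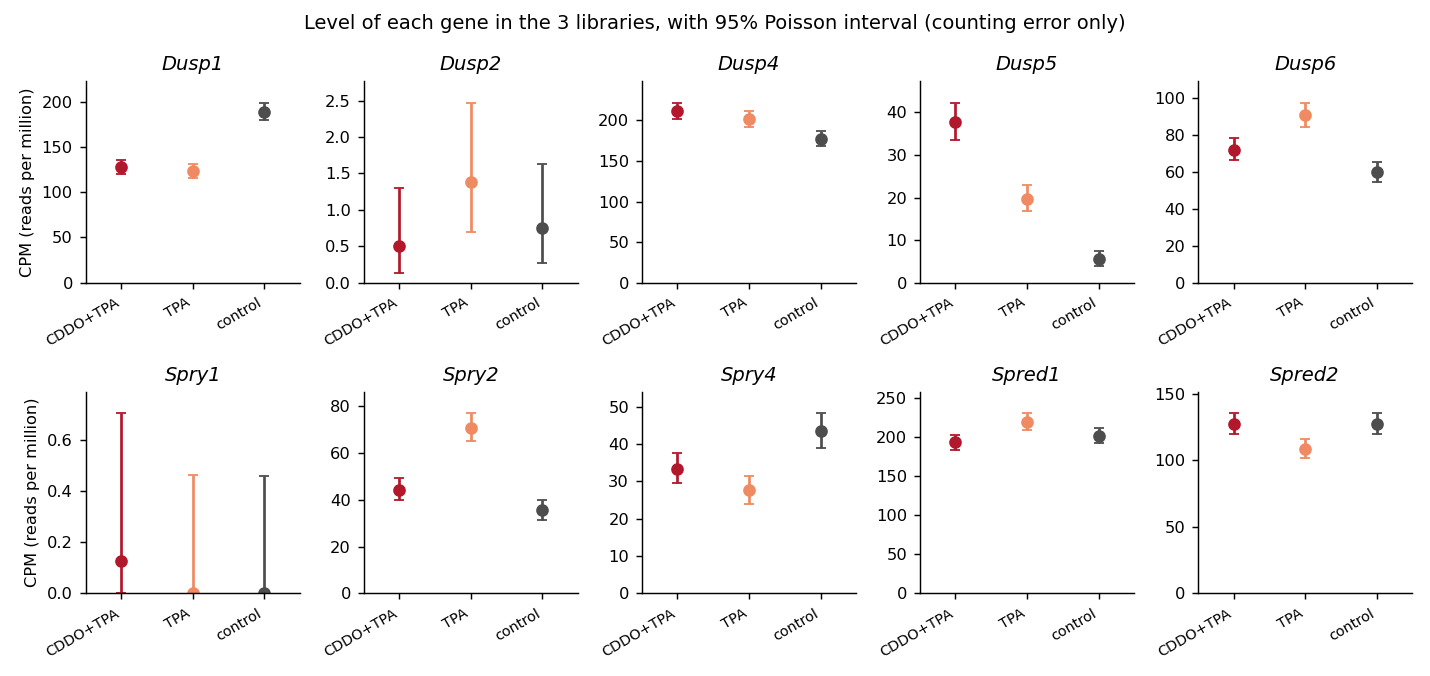
Level of each of the 10 genes in CPM (y axis, linear from 0) in the CDDO+TPA, TPA and control libraries (x axis, 1 library each), with 95% Poisson intervals of the read count. Dusp5 stands at 37.8, 19.7 and 5.49 CPM, Spry2 and Dusp6 are highest in the TPA library, and Dusp1 and Spry4 are highest in the control library.

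Dusp1 was lower in both treated libraries. It encodes a nuclear phosphatase that acts on JNK and p38 as well as ERK and is induced early by many stimuli. It had 1007 reads (128 CPM) in the CDDO+TPA library, 984 (123.5 CPM) in the TPA library and 1516 (189 CPM) in the control library. The TPA library was 1.53-fold lower than control (1.41 to 1.66) and the CDDO+TPA library 1.48-fold lower (1.37 to 1.61), both short of the size rule. The CDDO+TPA and TPA libraries were close to each other, with a ratio of 1.03 (0.945 to 1.13).

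The Dusp1 upstream sequence is shown too, as the only other sequence among the 8 searched with a match to any of the 4 motifs. It spans chr17:26508473-26508722 in GRCm38.p6, minus strand, written 5′ to 3′ on the strand of the gene, and comes from RefSeq. Capitals mark the cyclic AMP response element TGACGTCA.
Dusp1: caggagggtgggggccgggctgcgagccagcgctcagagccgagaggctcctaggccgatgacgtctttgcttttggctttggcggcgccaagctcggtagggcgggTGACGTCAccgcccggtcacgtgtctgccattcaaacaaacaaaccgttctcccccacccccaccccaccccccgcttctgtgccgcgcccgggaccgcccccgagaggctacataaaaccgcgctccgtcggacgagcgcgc
The element lies at positions -143 to -136, and 1.55% of the starts in the table had it within the same 250 bases. Of the 8 members searched, Dusp1 alone had it. Neither the AP-1 motif TGANTCA nor the ETS-type motif CCGGAA was found upstream of any of the 8, against 6.75% and 12.0% of all starts. Both strands were searched, the 4 motifs were chosen after the sequences had been seen, and a match is a description of letters and not evidence of binding.

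Dusp4, another nuclear phosphatase, was the most abundant member per length under both treatments. It had 1668, 1602 and 1422 reads in the CDDO+TPA, TPA and control libraries, or 211, 201 and 178 CPM in the same order. The TPA library was 1.13-fold higher than control (1.06 to 1.22) and the CDDO+TPA library 1.19-fold higher (1.11 to 1.28). At 0.687, 0.660 and 0.586 reads per counted base in the CDDO+TPA, TPA and control libraries, Dusp4 was among the most densely covered members. Dusp1 had 0.519, 0.507 and 0.781 reads per counted base in the CDDO+TPA, TPA and control libraries. The column names carry a mark of duplicate removal. Where duplicates are removed by position, dense coverage can narrow a fold, and how far it did so here was not tested.

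Dusp6, the cytoplasmic phosphatase specific for ERK, was highest in the TPA library. It had 570, 723 and 480 reads in the CDDO+TPA, TPA and control libraries, or 72.2, 90.8 and 59.9 CPM, and the 3 intervals did not overlap. The TPA library was 1.52-fold higher than control (1.35 to 1.70), and the CDDO+TPA library was 1.26-fold lower than TPA (1.13 to 1.41). Dusp2, a phosphatase best known from activated immune cells, had 4, 11 and 6 reads in the CDDO+TPA, TPA and control libraries. Its ratio of TPA to control was 1.84 (0.625 to 6.07), so that no difference was detectable at this depth.

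Spry2 had the same order as Dusp6 with a wider spread. It encodes a Sprouty protein that becomes phosphorylated on tyrosine after growth factor stimulation and restrains RAS activation. It had 349 reads (44.2 CPM) in the CDDO+TPA library, 564 (70.8 CPM) in the TPA library and 284 (35.4 CPM) in the control library. Unlike those of Dusp6, the intervals of the CDDO+TPA level (39.7 to 49.11 CPM) and the control level (31.44 to 39.81 CPM) overlapped at their ends. The TPA library was 2.00-fold higher than control (1.73 to 2.31), a log2 fold change of 0.99 that lay just below the size rule and passed it under 4 other scalings. The CDDO+TPA library was 1.60-fold lower than TPA (1.40 to 1.83) and remained 1.25-fold above control (1.06 to 1.46). The comparisons of TPA with control and of CDDO+TPA with TPA share the TPA library. Spry2 lies on chromosome 14, 105891947 to 105896819, minus strand.

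Spry4, which acts on the same pathway, showed the opposite order to Spry2. It had 264, 220 and 348 reads in the CDDO+TPA, TPA and control libraries, or 33.5, 27.6 and 43.4 CPM, and the intervals of the CDDO+TPA and TPA libraries overlapped. The TPA library was 1.57-fold lower than control (1.32 to 1.87), and the CDDO+TPA library was 1.30-fold lower than control (1.10 to 1.53). Spry1 had 1 read in the CDDO+TPA library and 0 in the TPA and control libraries. A count of 0 allows up to 3 reads, or 0.377 and 0.374 CPM in the TPA and control libraries, as a one-sided 95% limit, and no fold is given. The two-sided Poisson intervals, as plotted, reach 0.463 and 0.460 CPM in the TPA and control libraries. In the sum of the Sprouty members per kilobase, Spry2 held 74.3% in the CDDO+TPA library, 84.9% in the TPA library and 64.2% in the control library.

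The Spred genes varied least. Spred1, which binds neurofibromin and brings that RAS GTPase-activating protein to the membrane, had 1525, 1751 and 1616 reads in the CDDO+TPA, TPA and control libraries, or 193, 219.8 and 202 CPM. Its ratio was 1.09 in TPA against control (1.02 to 1.17) and 0.879 in CDDO+TPA against TPA (0.820 to 0.942). Spred2, a relative with the same domain plan, had 1004, 865 and 1019 reads in the CDDO+TPA, TPA and control libraries. Its ratio of CDDO+TPA to control was 1.00 (0.916 to 1.09), and its ratio of TPA to control was 0.854 (0.779 to 0.936).

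**Figure D2:**
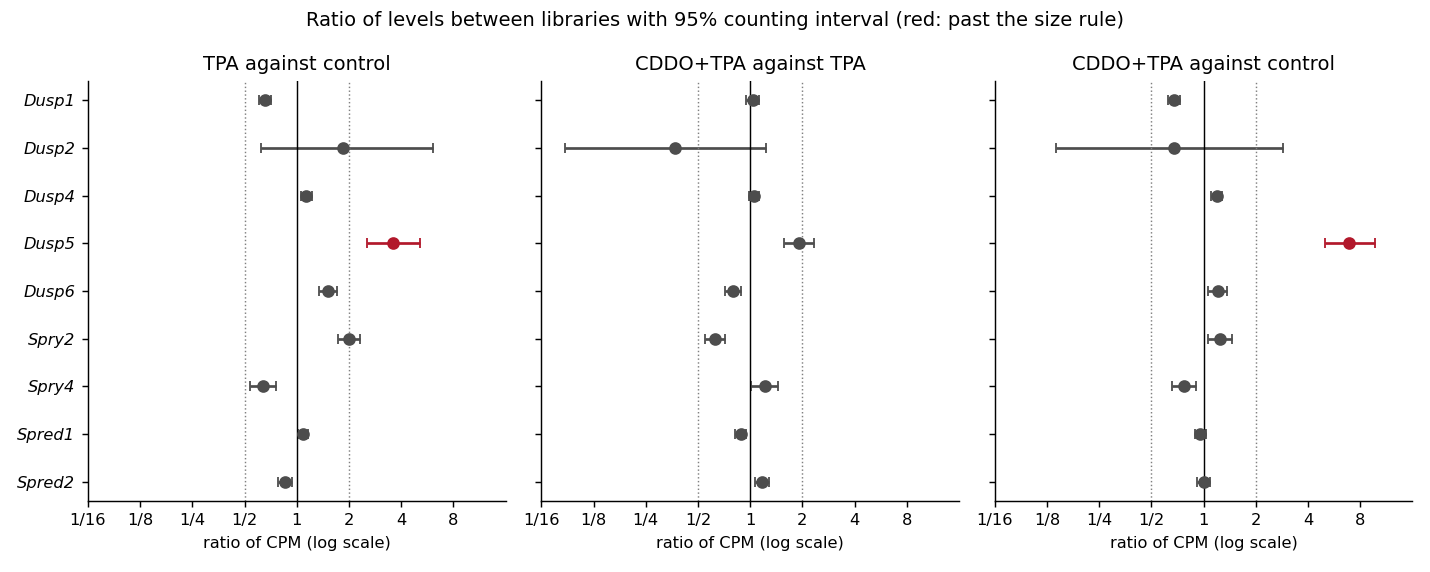
Ratio of CPM for the 9 measured genes (x axis, log scale) in TPA against control, CDDO+TPA against TPA and CDDO+TPA against control, with 95% counting intervals, and dotted lines at the size of the rule. Dusp5 is the only gene past the rule, at 3.59 between TPA and control and 6.88 between CDDO+TPA and control, while Spry2 sits on the line at 2.00 between TPA and control.

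Counted over the 10 members, 1 was higher past the size rule in the TPA library than in control, 0 were lower, 8 were not past it and 1 was not measured. Of all genes tested, 9.57% were higher and 5.91% lower in that comparison. Between CDDO+TPA and TPA 0 members were past the rule, against 7.87% higher and 7.78% lower among all genes. In CDDO+TPA against control, 1 member was higher and 0 were lower, against 8.02% higher and 3.37% lower. The shares of 11.1%, 0% and 11.1% of measured members higher were near or below those backgrounds, so the members as a group did not stand out by number. Their median log2 fold changes were 0.18, 0.05 and 0.00, and those of all genes were 0.000, 0.010 and -0.018, for TPA against control, CDDO+TPA against TPA and CDDO+TPA against control.

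A smaller size, a log2 fold change of 0.5 with the same condition on the interval, took in members with intermediate differences. In TPA against control it took in 3 members as higher (Dusp5, Dusp6 and Spry2) and 2 as lower (Dusp1 and Spry4), against 17.4% and 16.4% of all genes. In CDDO+TPA against TPA it took in Dusp5 as higher and Spry2 as lower, against 17.8% and 15.0% of all genes. In CDDO+TPA against control Dusp5 was higher and Dusp1 lower, against 15.2% and 10.9% of all genes. Dusp4, Spred1 and Spred2 were past neither size in any of the 3 comparisons. Dusp2 was not taken in either, because its intervals held 1. Its log2 fold change was -1.11 in CDDO+TPA against TPA (ratio 0.367, 0.0852 to 1.24) and 0.71 in TPA against control.

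Levels of different genes were compared per kilobase of counted exon. In the CDDO+TPA library the order was Dusp4 (87.1 CPM per kilobase), Dusp1 (65.7), Spred2 (44.3), Dusp5 (32.7), Spred1 (27.3), Dusp6 (25.8), Spry2 (21.2), Spry4 (7.29) and Dusp2 (0.313). Only Spred1 and Dusp6, and Dusp2 and the almost unread Spry1, had overlapping intervals as neighbours in that order. In the TPA library the order was Dusp4 (82.9 CPM per kilobase), Dusp1 (63.6), Spred2 (37.8), Spry2 (33.9), Dusp6 (32.5), Spred1 (31.0), Dusp5 (17.1), Spry4 (6.02) and Dusp2 (0.854). There the neighbours from Spred2 to Spred1 overlapped. In the control library Dusp1 led with 97.4 CPM per kilobase, above Dusp4 with 73.1, and Dusp5 with 4.75 stood below Spry4 with 9.46. Dusp5 therefore ranked 4 in the CDDO+TPA library and 8 in the control library, on a length that holds its coding exons alone.

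The summed level of the 5 phosphatase genes was 212 CPM per kilobase in the CDDO+TPA library, 196.8 in the TPA library and 197.2 in the control library, although its parts differed. Dusp1 made up 31.0%, 32.3% and 49.4% of the sum in the CDDO+TPA, TPA and control libraries, and Dusp5 made up 15.4%, 8.67% and 2.41% in the CDDO+TPA, TPA and control libraries. Dusp6, which shares its substrate with Dusp5, made up 12.2%, 16.5% and 10.9% in the CDDO+TPA, TPA and control libraries. Dusp4 made up 41.2%, 42.1% and 37.1% in the CDDO+TPA, TPA and control libraries. Dusp1 and Dusp4 were thus the largest parts in every library, and the Dusp1 share was highest in the control library.

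**Figure D3:**
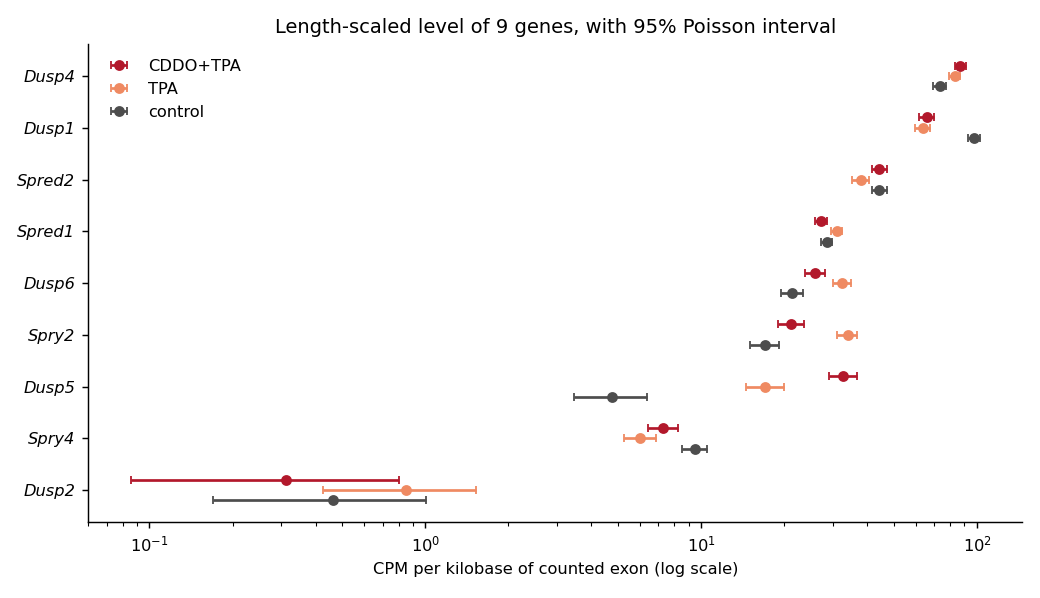
CPM per kilobase of counted exon (x axis, log scale) for the 9 measured genes (y axis), with 95% Poisson intervals, for the CDDO+TPA, TPA and control libraries. Dusp5 spans the widest range, with 32.7, 17.1 and 4.75 CPM per kilobase, whereas Dusp4 and the Spred genes lie close together in the 3 libraries.

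Of 11 relatives of these families, 10 were measured, and Spry3 had 0 reads in every library. In TPA against control 2 were higher and 1 lower past the size rule, or 20% and 10% of those measured, against 9.57% and 5.91% of all genes. Under total-count and upper quartile scaling 3 were higher, Spred3 being added, and 0 were lower. Dusp7, a cytoplasmic ERK phosphatase related to Dusp6, was highest in the TPA library, with 64.8, 84.7 and 37.8 CPM in the CDDO+TPA, TPA and control libraries. It was 2.24-fold higher in TPA than in control (1.95 to 2.57). Dusp10, which acts mainly on JNK and p38, had 35.6, 36.5 and 16.97 CPM in the CDDO+TPA, TPA and control libraries and was 2.15-fold higher in TPA than in control (1.75 to 2.66). Dusp14, a small phosphatase, had 16.6, 12.0 and 24.7 CPM in the CDDO+TPA, TPA and control libraries and was 2.05-fold lower in TPA than in control (1.60 to 2.64), the call lost under those 2 scalings.

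Dusp8, a phosphatase of JNK and p38, ran against Dusp5. It had 406 reads (51.4 CPM) in the CDDO+TPA library, 850 (106.7 CPM) in the TPA library and 1401 (175 CPM) in the control library. It was 2.07-fold lower in CDDO+TPA than in TPA (1.84 to 2.34), the only relative past the rule there, and 3.40-fold lower in CDDO+TPA than in control (3.04 to 3.80). In CDDO+TPA against TPA 0% of the measured relatives were higher and 10% lower, against 7.87% and 7.78% of all genes. In CDDO+TPA against control 2 relatives were higher, Dusp10 and Spred3, and Dusp8 was lower. These were 20% and 10% of those measured, against 8.02% and 3.37% of all genes. Counts this small do not set the relatives apart. Spred3, the remaining Spred gene, had 98.8, 91.5 and 47.3 CPM in the CDDO+TPA, TPA and control libraries and was 2.09-fold higher in CDDO+TPA than in control (1.85 to 2.37). The median log2 fold change of the relatives was 0.15 for TPA against control, -0.04 for CDDO+TPA against TPA and -0.10 for CDDO+TPA against control.

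Other inhibitors of the pathway stayed within the size rule. Of 16 listed, 15 were measured and 0 were past the size rule in any of the 3 comparisons. Of all genes tested, 9.57% were higher and 5.91% lower in TPA against control, and 7.87% and 7.78% in CDDO+TPA against TPA. In CDDO+TPA against control 8.02% were higher and 3.37% lower. Most of all genes thus stayed within the rule as well. Nf1, the neurofibromin gene whose product works with Spred proteins, had 299, 412 and 372 CPM in the CDDO+TPA, TPA and control libraries. Errfi1, which encodes a feedback inhibitor of the EGF receptor that is itself induced by ERK, had 83.5, 83.0 and 82.6 CPM in the CDDO+TPA, TPA and control libraries. Nearly all genes of the cascade itself also stayed within the rule, as most of all genes did. Of 24 measured genes from receptor to RSK, 0 were past it in either comparison of CDDO+TPA, against the shares of all genes given above. In TPA against control 0 were higher and 1 was lower, or 4.17%, against 9.57% and 5.91% of all genes. The exception was Egfr, the EGF receptor gene, with 40.7, 26.2 and 56.9 CPM in the CDDO+TPA, TPA and control libraries, 2.17-fold lower in TPA than in control (1.84 to 2.57).

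Most transcripts known to respond to ERK were not past the size rule. Of 26 listed, all measured, 1 was higher and 1 lower in TPA against control, 2 were higher and 0 lower in CDDO+TPA against TPA, and 3 were higher and 0 lower in CDDO+TPA against control. The shares higher were 3.85%, 7.69% and 11.5% in those comparisons, against 9.57%, 7.87% and 8.02% of all genes. The shares lower were 3.85%, 0% and 0%, against 5.91%, 7.78% and 3.37% of all genes. Fosb was a further gene higher in CDDO+TPA than in control under total-count and upper quartile scaling. The list's median log2 fold changes were 0.05, -0.07 and 0.25 in those comparisons. Phlda1, a pleckstrin homology protein gene, had 121, 144 and 59.3 CPM in the CDDO+TPA, TPA and control libraries, with 2.43-fold more in TPA than in control (2.18 to 2.71) and 2.04-fold more in CDDO+TPA than in control (1.83 to 2.28). Etv1, an ETS factor gene, had 46.4, 25.5 and 18.7 CPM in the CDDO+TPA, TPA and control libraries, the same order as Dusp5, and was 2.48-fold higher in CDDO+TPA than in control (2.04 to 3.02). Egr3, an early response transcription factor gene, had 28, 8 and 11 reads in the CDDO+TPA, TPA and control libraries and was 3.53-fold higher in CDDO+TPA than in TPA (1.57 to 8.97). Epha4, an ephrin receptor gene, was 3.82-fold higher in CDDO+TPA than in TPA (2.39 to 6.34) and 2.46-fold lower in TPA than in control (1.49 to 4.19), on 87, 23 and 57 reads in the CDDO+TPA, TPA and control libraries. The early genes Fos and Egr1 were not past the rule, with 21.5, 15.8 and 24.0 CPM and 133, 79.6 and 91.6 CPM in the CDDO+TPA, TPA and control libraries. The treated cells had been dosed over 5 days, and no earlier time was measured.

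**Figure D4:**
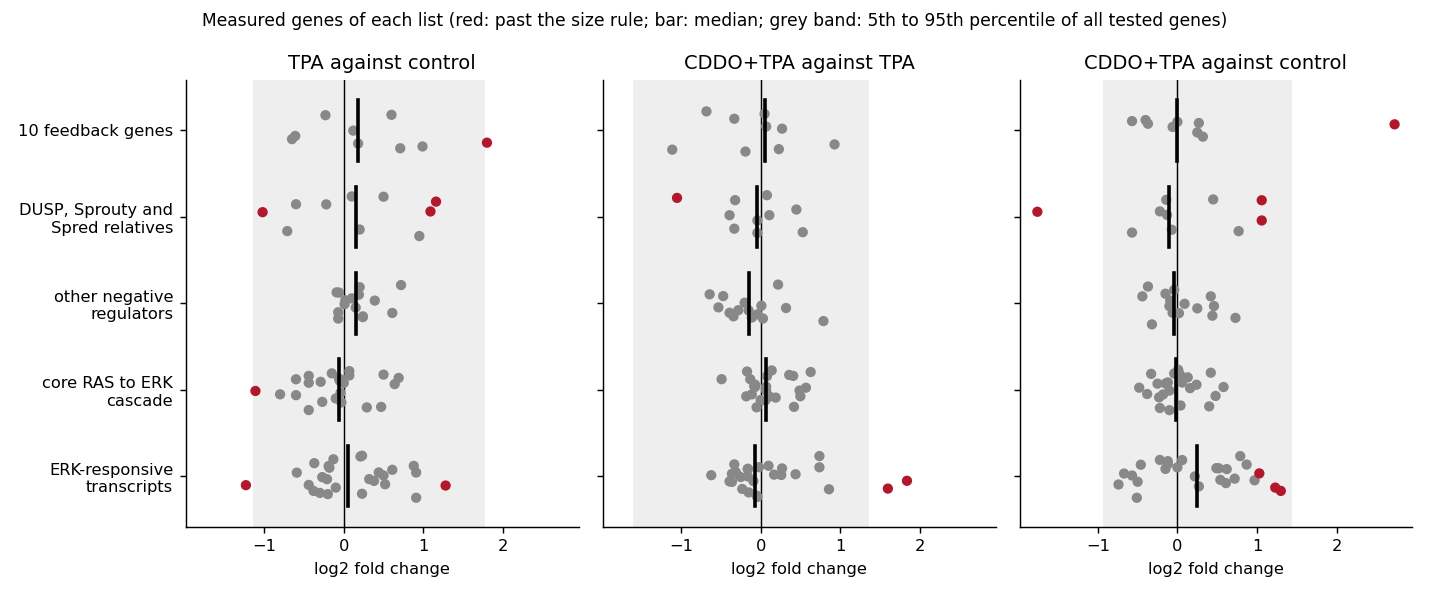
Log2 fold change (x axis) of each measured gene of the 10 feedback genes and of the 4 lists (y axis) in the 3 comparisons, with bars at the medians and a grey band from the 5th to the 95th percentile of all 13100 genes tested. Dusp5 lies above the band at 1.80 (TPA against control) and at 2.73 (CDDO+TPA against control), and Dusp8 lies below it at -1.76 in CDDO+TPA against control.

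The genes most like the 3 members of widest range were sought by the distance between pairs of log2 fold changes (CDDO+TPA against TPA, TPA against control) among 9883 genes with a mean of at least 10 CPM. With 3 libraries, such a likeness rests on 3 points and is a description only. Nearest to Dusp5 was Tigit, an immune checkpoint receptor gene, at a distance of 0.171 and with 46.0, 25.7 and 7.99 CPM in the CDDO+TPA, TPA and control libraries. Dixdc1 and Fam129a followed at 0.256 and 0.335. Nearest to Spry2 was Klf16, a Krüppel-like factor gene, at 0.007 and with 79.6, 128 and 64.3 CPM in the CDDO+TPA, TPA and control libraries, before Irf2bp1 and Tcf7l1 at 0.027 and 0.033. Mettl23, 4930539J05Rik and Zc3h12c were nearest to Dusp2, whose own values rest on 4 to 11 reads.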

How the data were processed

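For 3 RNA-seq libraries, raw counts of reads per gene symbol were deposited, with no normalization. Per the file headers, featureCounts 1.5.3 counted primary alignments on a UCSC mm10 annotation, with no strand option, and the columns carry a mark of duplicate removal. Per the submitters' processing notes, HISAT2, Picard and DESeq were used, with no version stated. The method of duplicate removal and any pooling of replicates are not given in the sources used here.

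Counts were scaled by TMM factors over all genes (edgeR 4.0.16, R 4.3.3), which were 1.00, 1.02 and 0.978 for CDDO+TPA, TPA and control. Log2 CPM used a prior count of 2, and log2 fold changes are differences of it. Folds are ratios of CPM without a prior, with exact conditional binomial 95% intervals. Levels carry exact Poisson intervals. A gene entered if any library reached 1 CPM. No p-value was computed, there being 1 library per group. Alternatives were other scalings, including the size factors of DESeq2 1.42.0 without its test, prior counts of 0.5 and 5, other filters and a size rule of 0.5. The members and lists were chosen with earlier results of these data known. Genes named from the lists had to be past the size rule, with at most 6 per list and comparison. Srf, Nf1, Errfi1, Fos and Egr1 were named after their values were seen. Likeness was sought for the 3 members of widest range, with 3 genes each. Upstream sequences come from RefSeq (GRCm38.p6), and those of 2 of the 8 members searched are printed. Entries on chromosome 18, where Spry4 lies, were left out of the member search, and no entry was matched for Dusp4.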

Additional observations from a re-analysis of the deposited data

How the results depend on the processing

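All 213 log2 fold changes of single members under an alternative moved by less than the counting error of the member, and all 24 medians stayed between the medians of the members' interval ends. The other filters change only which genes enter, so the single-member values under them could not move. Of 54 counts of members past the size rule, 45 held. In TPA against control the count of members higher was 1 as reported and 2 with total-count, upper quartile or median-of-ratios scaling, or with TMM factors from the filtered genes, which was added after the data were seen. Spry2 was the gene added. With a size rule of 0.5 that count was 3 and the count lower was 2, namely Dusp1 and Spry4. The same rule gave 1 higher (Dusp5) and 1 lower (Spry2) in CDDO+TPA against TPA, and 1 lower (Dusp1) in CDDO+TPA against control. The wider rule takes in smaller differences by construction. Among the relatives, the count lower in TPA against control was 1 and became 0 with total-count and with upper quartile scaling, where Dusp14 was lost. Under the same scalings Spred3 took the relatives higher in TPA against control to 3, and Fosb took the ERK-responsive transcripts higher in CDDO+TPA against control to 4. The other 90 of 96 list counts held, with the same genes. These scalings moved the median of all genes to at most 0.057. No paired analysis was possible because each group had 1 library, and for the same reason no library could be left out. Depth limits Dusp2 and Spry1.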

Other observations

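Dusp1, Dusp8, Dusp10 and Dusp16 are known to act on JNK or p38 themselves. Kinase genes of the JNK and p38 cascades, most of them not such substrates, were read as well. That list was chosen after the values above had been seen. Of 15 genes 12 were measured. In TPA against control 2 were higher past the size rule and 0 lower, in CDDO+TPA against TPA 0 were higher and 1 lower, and in CDDO+TPA against control 1 was higher and 0 lower. Of all genes tested, 9.57% were higher in TPA against control, 7.78% lower in CDDO+TPA against TPA and 8.02% higher in CDDO+TPA against control, so counts this small do not set the list apart. Map2k6, a kinase that activates p38, had 39, 32 and 6 reads in the CDDO+TPA, TPA and control libraries and was 5.37-fold higher in TPA than in control (95% counting interval 2.21 to 15.7) and 6.60-fold higher in CDDO+TPA than in control (2.77 to 19.1). Mapk12, the p38 gamma gene, had 28, 95 and 44 reads in the CDDO+TPA, TPA and control libraries and was 2.17-fold higher in TPA than in control (1.504 to 3.18) and 3.36-fold lower in CDDO+TPA than in TPA (2.19 to 5.32). The more abundant Mapk8, Mapk9 and Mapk14, which encode JNK1, JNK2 and p38 alpha, were not past the rule, with 68.8, 193.5 and 135 CPM in the CDDO+TPA library.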
